A study of Mus musculus with 49 samples.

Results

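The A/B compartment scores of single mouse embryonic stem (ES) cells are described here within chromosomes, by the deposited column cis_ab_comp, and between chromosomes, by trans_ab_comp. Both scores were taken for every cell that passed the authors' quality control in 3 deposited tables, which gave 4098 of the 5871 cells listed. Of these, 1992 were diploid cells grown in 2i, 859 were diploid cells grown in serum and 1247 were haploid cells.

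Chromosomes fold so that active, gene-rich stretches (A) meet other A stretches more often than inactive, gene-poor ones (B), and B stretches meet B. Compartment contrast is weak or missing on condensed mitotic chromosomes and returns after division, and A stretches tend to replicate before B stretches. A cis score reads this preference from contacts inside a chromosome, and a trans score reads it from contacts between chromosomes, which are fewer per cell. The scale of neither score is defined in the sources used here, so a value is read only against other values of the same score in the same table.

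Contacts were measured by Hi-C, which joins and sequences DNA ends that lay close together in a fixed nucleus. The diploid line is an F1 hybrid of 129/SV-Jae and castaneus mice and the haploid line is H129-1, so each ploidy is 1 line. Diploid 2i cells were feeder-free and made up 18 libraries. Diploid serum cells came off feeder cells, which were depleted before Oct-3/4-positive cells were sorted, and made up 8 libraries. Haploid cells of both media made up 19 libraries with passing cells. The authors placed each cell in 1 of 5 groups (first post-M and G1, then early-S and late-S/G2, last pre-M, where M is mitosis) and in 1 order along the cycle, and what the groups and the order were computed from is not given in the sources used here. If the compartment scores or features close to them entered either, part of the course described below along phases and order was fixed by that choice, which was not tested. The conditions are 1CDU, NoSort and the sort gates 1CD_G1, 1CD_eS, 1CD_mS and 1CD_lS_G2 in the 2i table, 1CDS2 and 1CDS1 in the serum table, and Serum_G1/S, 2i_G1 and 2i_all in the haploid table. Sorting used the DNA stain Hoechst and the protein Geminin, and 1CDU, 1CDS1 and 1CDS2 are not explained in the labels. Expression was not part of these tables, so the ES identity of the cells could not be checked against marker genes.

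Passing cells had a median of 205511 contacts in the 2i table, 255605 in the serum table and 80858 in the haploid table. A library, which is 1 deposited sample within a table, held between 4 and 162 passing cells. The library diploid 2_14 held cells of both diploid tables. Whether libraries stem from separate cultures is not stated in the labels, and p-values therefore cover the spread between these libraries only, which may be technical.

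Both scores rose from G1 to late-S/G2 in diploid 2i and haploid cells, as did the cis score in diploid serum cells. In the library means of 2i cells, cis_ab_comp lay between 0.30 and 0.363 in G1 (median 0.339, n = 10), between 0.378 and 0.449 in early-S (median 0.410, n = 16) and between 0.399 and 0.488 in late-S/G2 (median 0.448, n = 10). G1 and early-S libraries did not overlap, while early-S and late-S/G2 libraries did. In the same libraries trans_ab_comp lay between 0.184 and 0.273 in G1 (median 0.213), between 0.258 and 0.336 in early-S (median 0.304) and between 0.313 and 0.345 in late-S/G2 (median 0.330). The early-S range of trans_ab_comp overlapped both its neighbours.

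Haploid libraries followed the same order. The cis score lay between 0.246 and 0.314 in G1 (median 0.291, n = 9), between 0.313 and 0.413 in early-S (median 0.362, n = 13) and between 0.374 and 0.458 in late-S/G2 (median 0.417, n = 9). The trans score lay between 0.117 and 0.184 in G1 (median 0.146), between 0.162 and 0.265 in early-S (median 0.232) and between 0.234 and 0.305 in late-S/G2 (median 0.28). Neighbouring phases overlapped in both scores. The haploid library 11 was lowest in G1 for both scores, and library 17 was highest for cis_ab_comp in each of the 3 phases.

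In serum libraries cis_ab_comp lay between 0.0919 and 0.103 in G1 (median 0.0965, n = 7), between 0.114 and 0.138 in early-S (median 0.126, n = 8) and between 0.138 and 0.149 in late-S/G2 (median 0.144, n = 7). No phase overlapped its neighbour in that score. The trans score lay between 0.00852 and 0.0307 in G1 (median 0.0155), between 0.0301 and 0.0402 in early-S (median 0.0344) and between 0.0317 and 0.0484 in late-S/G2 (median 0.0370), and neighbouring phases overlapped. Levels were not tested between the tables. The library with cells of both diploid tables held 0.443 for cis_ab_comp in its 45 early-S 2i cells and 0.130 in its 41 early-S serum cells. These cells came from separate batches, and whether the score has the same scale in both tables is not stated.

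**Figure D1:**
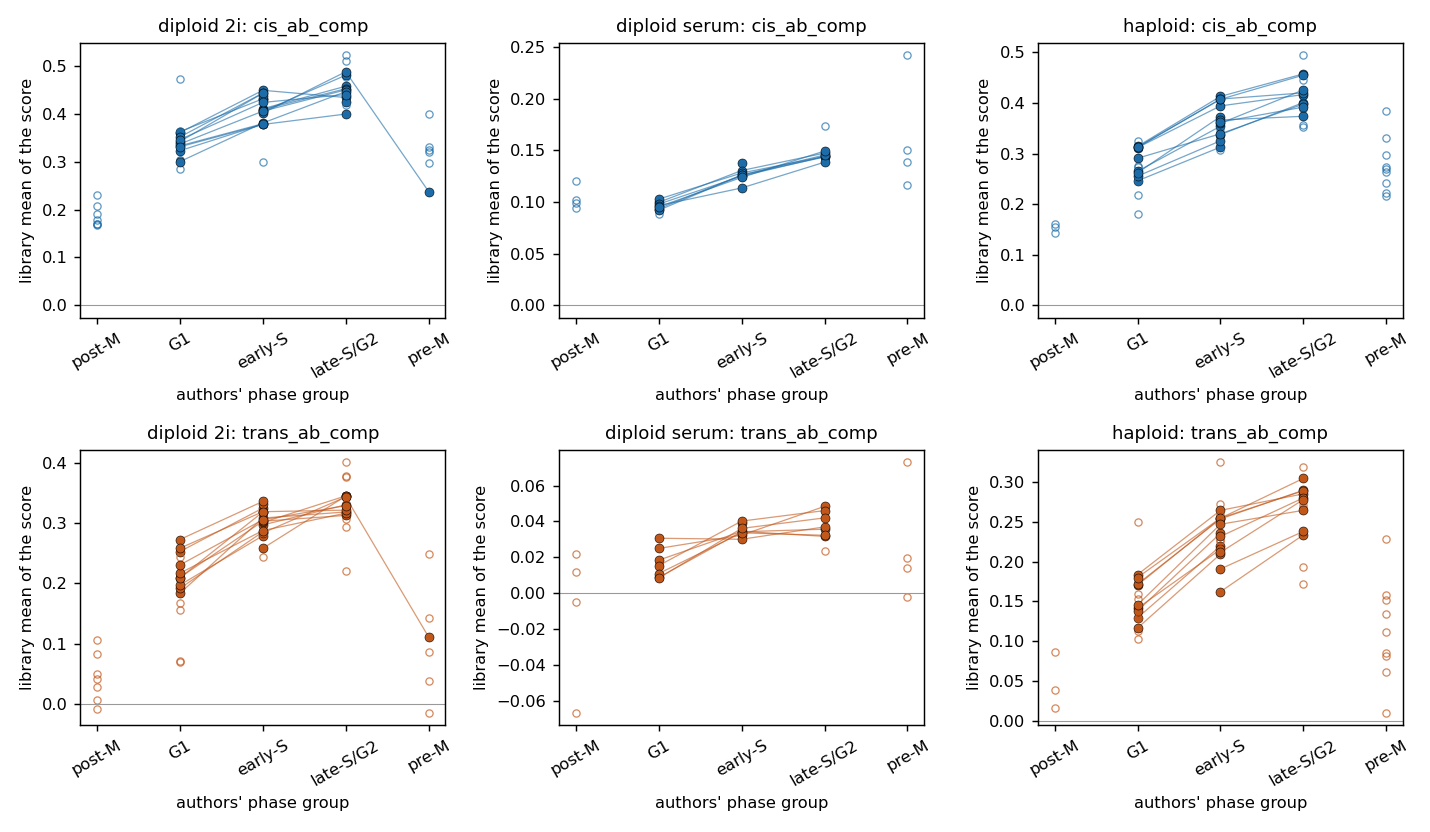
Mean of cis_ab_comp (top) and trans_ab_comp (bottom) per library in the 5 phase groups of the authors, for diploid 2i, diploid serum and haploid cells, in units of the score. Filled points are libraries with at least 10 cells of the phase, joined by a line per library, open points have fewer cells. The filled points climb through G1, early-S and late-S/G2 in 2i and haploid cells, other than the cis score of diploid 11. That score falls from 0.449 in early-S to 0.434 in late-S/G2. The filled points of the serum trans score stay below 0.05.

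Differences within a library carry the test of the phase change, because each library then serves as its own pair. In 2i cells cis_ab_comp averaged 0.411 ± 0.030 in early-S and 0.339 ± 0.019 in G1 (SD, n = 10 libraries), a mean rise of 0.0724 that all 10 libraries showed. The two-sided sign-flip test with 100000 resamples, adjusted by Benjamini-Hochberg over 86 tests of all per-cell features, gave p = 0.012. The trans score averaged 0.307 ± 0.018 in early-S and 0.222 ± 0.030 in G1, and rose by 0.0843 in 10 of 10 libraries (permutation adjusted p = 0.012). Of all features, 46.7% passed in that step.

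The next step was smaller in both scores, over 9 libraries of which 5 also entered the first step. In those 5, the first step made at least 55.2% of the cis rise and 71.1% of the trans rise from G1 to late-S/G2. The largest cis changes of the next step, 0.0756 and 0.0862, were those of the late-gate libraries diploid 25 and 26. The cis score of 2i cells averaged 0.450 ± 0.026 in late-S/G2 and 0.407 ± 0.021 in early-S, a rise of 0.0428 in 8 of 9 libraries (exact adjusted p = 0.0217). In diploid 11, the only 1CDU library with enough late-S/G2 cells, cis_ab_comp stood at 0.434 in late-S/G2 and 0.449 in early-S. The trans score averaged 0.329 ± 0.013 in late-S/G2 and 0.296 ± 0.018 in early-S, and rose by 0.0331 in 9 of 9 (exact adjusted p = 0.012). In that step 73.3% of features passed. After a linear fit on log10 contacts the cis rise was 0.0443 with an exact adjusted p of 0.0634. Among cells between the 25th and 75th percentile of contacts, which left 6 libraries, the trans rise was 0.00851 with an exact adjusted p of 0.726.

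Haploid cells passed in all 4 tests at a minimum of 10 cells. In early-S against G1 the cis score rose by 0.0841 ± 0.0194 and the trans score by 0.0864 ± 0.0097 (SD over 9 libraries), each higher in 9 of 9 (exact adjusted p = 0.012), in a step where 73.3% of features passed. In late-S/G2 against early-S the rises were 0.0392 ± 0.0221 in cis and 0.0436 ± 0.0184 in trans, again in 9 of 9 (exact adjusted p = 0.012), with 53.3% of features past the threshold. Among cells of middle depth, which left 7 libraries for the first step and 5 for the next, none of the 4 passed, with rises of 0.0897, 0.0834, 0.0502 and 0.0390 in the same order (exact adjusted p between 0.158 and 0.269). No test of either score passed there in the 2i and serum tables either, over between 2 and 6 libraries. Over 5 libraries or fewer no exact p can reach 0.05, so those tests could not pass whatever the size of the rise.

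In serum cells the cis score passed at both steps and the trans score at neither. The cis score averaged 0.125 ± 0.005 in early-S and 0.0968 ± 0.0037 in G1, a rise of 0.0279 in 7 of 7 libraries (exact adjusted p = 0.028), where 61.5% of features passed. It averaged 0.145 ± 0.003 in late-S/G2 and 0.125 ± 0.005 in early-S, a rise of 0.0199 in 7 of 7 (exact adjusted p = 0.028), where 46.2% passed. On medians over cells in place of means, over the same 7 libraries, the late-S/G2 rise was 0.0151 (exact adjusted p = 0.056). The trans score differed by 0.0176 between early-S and G1, higher in 6 of 7 (exact adjusted p = 0.0507), and by 0.00455 between late-S/G2 and early-S, higher in 5 of 7 (exact adjusted p = 0.13). Without diploid 4 the trans difference between late-S/G2 and early-S was 0.00264. Leaving out any 1 of the 7 libraries put the serum cis steps at adjusted p between 0.0507 and 0.0527, since the smallest exact p over 6 libraries is 0.0312. With a minimum of 5 cells in place of 10, which brings in an 8th library, the serum trans rise into early-S was 0.0182 with an exact adjusted p of 0.028. With a minimum of 20 cells, which left between 3 and 8 libraries, none of the tests of either score passed in any table, and the smallest exact adjusted p was 0.0726. Those over 5 libraries or fewer could not pass.

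Set against the spread of single cells, the first step was the larger on average in each table. The libraries of the steps match only in part in 2i and haploid cells. The change into early-S was 0.898 ± 0.281 cell SDs in cis and 0.864 ± 0.203 in trans for 2i libraries (SD, n = 10), and 1.39 ± 0.31 in cis and 1.24 ± 0.21 in trans for haploid libraries (n = 9). In serum it was 1.09 ± 0.41 in cis and 0.588 ± 0.363 in trans (n = 7), with cis larger in 6 of 7. The change into late-S/G2 was 0.442 and 0.335 in 2i, 0.552 and 0.607 in haploid, and 0.563 and 0.149 in serum libraries, for cis and trans in that order.

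In libraries that held all 3 phases, the share of the whole late-S/G2 minus G1 rise that was already made in early-S could be read for each score. Its median was 68.2% for cis and 90.6% for trans over 5 libraries in 2i, with trans larger in 4 of 5. In serum it was 61.2% for cis and 82.5% for trans over 7 libraries, with trans larger in 5, although the trans share ran between -9.13% and 121% because the whole rise there was small. In haploid cells the medians were 68.9% and 69.4% over 5 libraries, with trans larger in 2. These shares are a description and were not tested.

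Around mitosis both scores were low in 2i and haploid cells. These groups are small, with 29 post-M and 28 pre-M cells in 2i, 3 and 21 in haploid and 6 and 17 in serum, so libraries with at least 1 cell were used and adjusted over 172 tests. In G1 the 2i cis score averaged 0.315 ± 0.023, against 0.188 ± 0.023 in post-M (SD, n = 7 libraries), and all 7 rose, by 0.128 on average (exact adjusted p = 0.0389). The trans score averaged 0.200 ± 0.064 in G1 and 0.0440 ± 0.0400 in post-M, with a rise of 0.156 in 7 of 7 (exact adjusted p = 0.0389). In that step 60% of features passed. Each library counted equally there, although some G1 means rested on very few cells. In 1CD_lS_G2, 17 post-M cells were set against 3 G1 cells over 2 libraries. The 1 post-M cell of 1CD_mS was set against part of the 6 G1 cells of that gate. Across the 7 libraries post-M cis_ab_comp lay between 0.169 and 0.230, and post-M trans_ab_comp between -0.00783 and 0.106.

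Haploid cells fell into pre-M in both scores. The cis score averaged 0.278 ± 0.053 in pre-M and 0.419 ± 0.024 in late-S/G2 (SD, n = 9 libraries), lower in 9 of 9 (difference -0.141, exact adjusted p = 0.0175). The trans score averaged 0.113 ± 0.063 in pre-M and 0.278 ± 0.020 in late-S/G2, lower in 9 of 9 (difference -0.165, exact adjusted p = 0.0175), where 60% of features passed. In 2i the pre-M values were lower in 6 of 6 libraries for both scores, with differences of -0.136 in cis and -0.229 in trans, and an exact adjusted p of 0.0664. The smallest exact p over 6 libraries is 0.0312, and 0% of features passed in that step.

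Pre-M serum cells had a mean cis score of 0.162 ± 0.055, against 0.144 ± 0.004 in late-S/G2 (SD, n = 4 libraries). It was higher in diploid 5_10 and 7 and lower in diploid 8 and 9, and 4 libraries cannot give an exact p under 0.125. The trans score there was 0.0261 ± 0.0324 in pre-M and 0.0393 ± 0.0060 in late-S/G2, lower in 3 of 4. Post-M serum cells had 0.104 ± 0.011 in cis, and G1 cells of the same 4 libraries 0.0954 ± 0.0025. A difference between the tables in this step was not tested.

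Along the authors' order, cut into 20 bins of equal cell number within each table, both scores were lowest in bin 1. In 2i cells the cis mean was 0.253 in bin 1, 0.333 in bin 2, 0.422 in bin 7, 0.438 in bin 11, 0.489 in bin 19 and 0.429 in bin 20. The trans mean was 0.118 in bin 1, 0.192 in bin 2, 0.329 in bin 9, 0.334 in bin 11, 0.346 in bin 19 and 0.289 in bin 20. Trans first reached 90% of its rise in bin 9, at 45% of the order, and cis in bin 17, at 85%. Trans fell back below that level in bins 12 to 15, with means of 0.309, 0.323, 0.323 and 0.316. Once each library's own mean was taken off, trans first reached 90% of its rise at 85% too.

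Haploid cis_ab_comp was 0.233 in bin 1, 0.389 in bin 10, 0.419 in bin 13, 0.442 in bin 19 and 0.379 in bin 20. Haploid trans_ab_comp was 0.103 in bin 1, 0.251 in bin 10, 0.267 in bin 12, 0.277 in bin 16, its highest, and 0.219 in bin 20. Serum cis_ab_comp was 0.0888 in bin 1, 0.134 in bin 7, 0.154 in bin 17 and 0.156 in bin 20, its highest bin. Serum trans_ab_comp was 0.00354 in bin 1, 0.0370 in bin 7, 0.0461 in bin 17, its highest, and 0.0282 in bin 20. The SD over cells within a serum bin was between 0.0234 and 0.0406 for trans.

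The ends of the order hold the cells that flank mitosis. Without its post-M and pre-M cells, bin 20 of the 2i table had 0.489 for cis and 0.361 for trans over 71 cells, against 0.429 and 0.289 over all 99. Bin 1 had 0.282 and 0.148 over 71 cells without them, against 0.253 and 0.118 over all 100. In haploid cells bin 20 stood at 0.428 and 0.277 without those cells, against 0.379 and 0.219 with them.

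**Figure D2:**
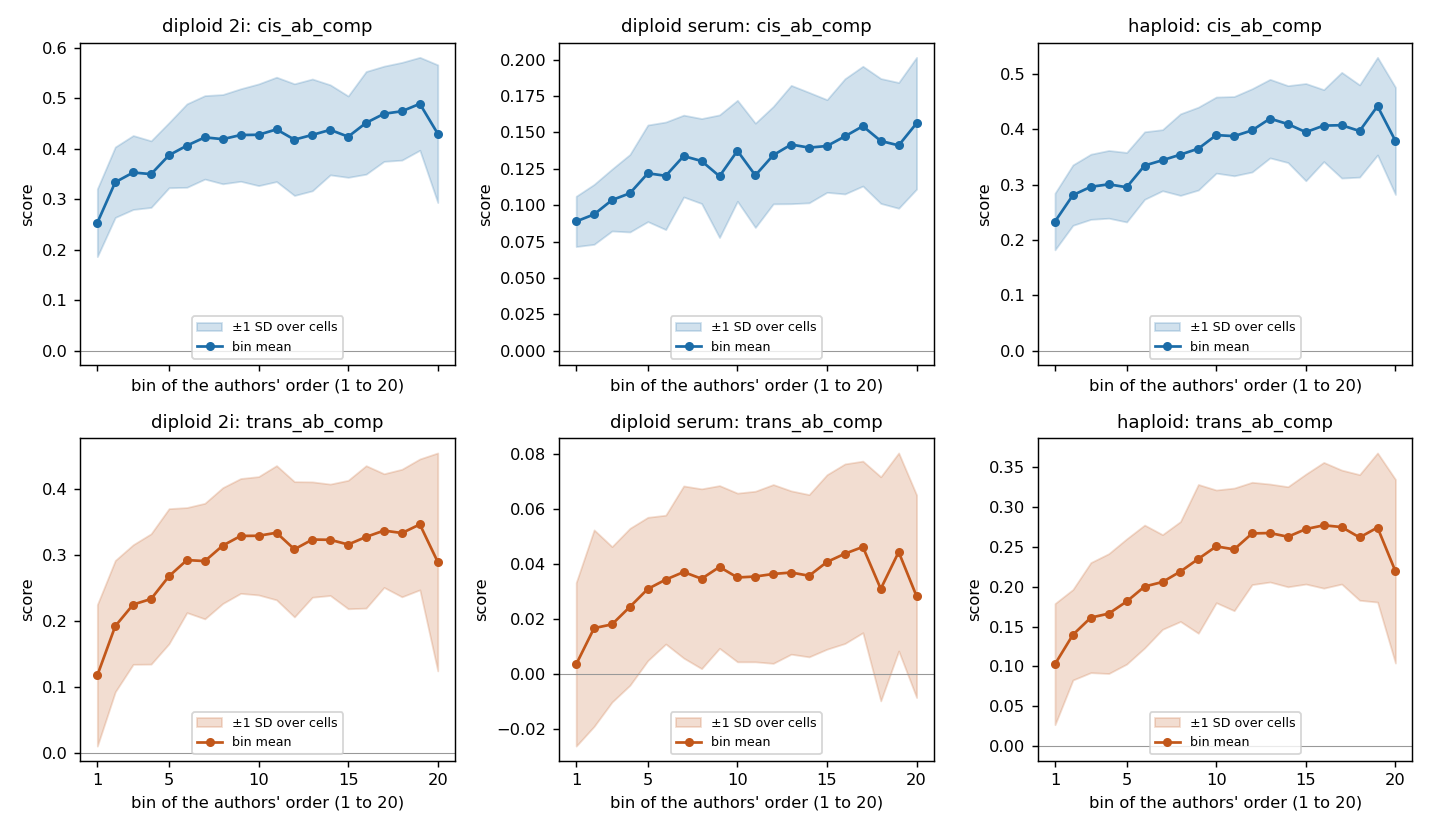
Mean of cis_ab_comp (top) and trans_ab_comp (bottom) in 20 bins of the authors' order, in units of the score, with a band of 1 SD over the cells of a bin. Bin 1 is the lowest in every panel, and the last bin drops in all panels other than serum cis, which ends at 0.156.

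Within G1 both scores correlated with the order. Over sets of at least 20 cells of 1 batch and phase, where a batch is the authors' batch number, the median Spearman's rho of cis_ab_comp with the order was 0.299 in 6 G1 sets of 2i, 0.507 in 8 of haploid and 0.375 in 3 of serum cells. It was positive in each of these sets. For trans_ab_comp it was 0.317 and 0.446 in 2i and haploid sets, positive in each, and 0.282 in serum sets, where 2 of 3 were positive and the lowest was -0.0767. In late-S/G2 the haploid trans score had a median of -0.0132 over 9 sets, of which 4 were positive, while the 2i cis score had 0.203 and was positive in 9 of 9.

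The sort gates give an ordering by DNA content and Geminin, set when the cells were sorted. Each gate had 2 libraries with at least 10 cells, so values are given without a test. The cis means over all cells of a gate were 0.336 and 0.345 in 1CD_G1, 0.432 and 0.439 in 1CD_eS, 0.436 and 0.435 in 1CD_mS, and 0.449 and 0.437 in 1CD_lS_G2. The G1 gate stood apart. The early-S gate overlapped the mid-S and late gates, which nearly met each other.

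The trans means were 0.210 and 0.216 in 1CD_G1, 0.318 and 0.334 in 1CD_eS, 0.314 and 0.325 in 1CD_mS, and 0.305 and 0.299 in 1CD_lS_G2. The trans mean of the late gate minus that of the mid-S gate was -0.0174, and the libraries of these gates did not overlap. The late gate held 17 post-M and 23 pre-M cells among 326 passing cells. Without them its means were 0.473 in cis and 0.334 in trans, against 0.437 and 0.321 in 1CD_mS treated likewise, and the trans difference was then 0.0137.

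Cells that the authors called early-S differed by the gate they came from. Their cis means were 0.378 and 0.379 in the G1 gate, 0.431 and 0.437 in the early-S gate, 0.410 and 0.409 in the mid-S gate, and 0.405 and 0.401 in the late gate. Their trans means were 0.285 and 0.279, 0.319 and 0.331, 0.297 and 0.301, and 0.258 and 0.284 in the same order of gates. Early-S cells of the G1 gate had median places of 27.3% and 26.5% in the authors' order, and those of the mid-S gate 61.7% and 60.4%. The early-S cells of the late gate lay at 45.5% and 52.2% and were only 12 and 17 cells.

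Conditions of a table were compared phase by phase, with library labels permuted within a phase. None of the 20 comparisons of the 2 scores passed after adjustment over 144 tests of all features, and the smallest adjusted p was 0.0807. With 4 libraries a side the smallest exact p is 0.0286, with 4 against 5 it is 0.00794, and for serum early-S and late-S/G2 it is 0.05. A comparison of 4 against 4 libraries can therefore pass after adjustment only if most of the 144 tests have low p-values. Across all features 0% passed, 38.9% had an unadjusted exact p under 0.05 and 44.4% had library means that did not overlap. For the scores 9 of 20 had an unadjusted p under 0.05, and 9 of 20 did not overlap, both close to that background.

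The non-overlapping pairs were mostly those of the haploid condition Serum_G1/S. In G1 its cis means were 0.314, 0.312, 0.313 and 0.312 in libraries 17 to 20, against 0.246, 0.265, 0.255 and 0.262 in 2i_G1 libraries 11 to 14 (exact adjusted p = 0.0807). Every Serum_G1/S library lay above every 2i_G1 library. Its G1 trans means were 0.171, 0.172, 0.184 and 0.180, against 0.117, 0.129, 0.141 and 0.138 in 2i_G1 (exact adjusted p = 0.0807).

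In early-S the Serum_G1/S cis means were 0.413, 0.394, 0.408 and 0.408, against 0.313, 0.354, 0.325 and 0.373 in 2i_G1 and 0.338, 0.360, 0.366, 0.339 and 0.362 in 2i_all. The differences were 0.0643 and 0.0526 (exact unadjusted p = 0.0286 and 0.00794, adjusted p = 0.0807 for both). The trans means were 0.255, 0.254, 0.265 and 0.255, against 0.210, 0.220, 0.215 and 0.236 in 2i_G1 and 0.162, 0.232, 0.191, 0.247 and 0.212 in 2i_all. Both scores lay higher in each Serum_G1/S library than in each library of the other conditions in early-S.

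In late-S/G2 the cis score averaged 0.437 ± 0.022 in Serum_G1/S and 0.398 ± 0.019 in 2i_all (SD, n = 4 and 5, exact adjusted p = 0.0847), and those libraries overlapped. The trans score averaged 0.292 ± 0.009 and 0.259 ± 0.022 there (exact adjusted p = 0.0807) without overlap. The 2i_G1 and 2i_all early-S libraries overlapped in both scores, with differences of -0.0117 in cis and 0.0114 in trans. Leaving out 1 library put the cis difference between -0.0223, without haploid 14, and -0.00216, without haploid 11, and the trans difference between -0.000230, without haploid 1, and 0.0210.

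Depth and place in the order moved with these differences. Median contacts per early-S cell lay between 153154 and 215178 in Serum_G1/S libraries, against between 66234 and 77716 in 2i_G1 and between 25556 and 69137 in 2i_all libraries. The median place of early-S cells in the order lay between 51.5% and 59.5% in Serum_G1/S, between 38.3% and 40.6% in 2i_G1 and between 35.6% and 47.7% in 2i_all. In G1 the Serum_G1/S cells lay earlier, between 7.94% and 12.4%, against between 13.7% and 20.4% in 2i_G1. Among cells between the 25th and 75th percentile of contacts the early-S cis difference was 0.0626 to 2i_G1 and 0.061 to 2i_all, and the G1 difference to 2i_G1 was 0.0673 (exact adjusted p = 0.0739 for each). The part of the place in the order was not tested. With a minimum of 5 cells per library and phase, the cis and trans differences to 2i_G1 in G1, the cis difference to 2i_G1 in early-S and the cis differences to 2i_all in early-S and late-S/G2 passed, at adjusted p between 0.0418 and 0.0452.

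In diploid 2i cells the early-S cis means were 0.449, 0.431, 0.443 and 0.443 in 1CDU, against 0.405, 0.381, 0.424 and 0.378 in NoSort (exact adjusted p = 0.0807). The conditions did not overlap, and the difference was 0.0447. Early-S cells of 1CDU lay between 33.3% and 42.4% of the order by library, against between 40.4% and 52.9% for NoSort. The trans means overlapped, at 0.322 ± 0.012 in 1CDU and 0.304 ± 0.013 in NoSort (SD, n = 4 each, exact adjusted p = 0.162). In G1 the cis means were 0.354 ± 0.010 and 0.328 ± 0.020 (exact adjusted p = 0.118).

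In serum cells the early-S cis means were 0.121, 0.114, 0.126 and 0.124 in 1CDS2 and 0.130, 0.128, 0.126 and 0.129 in 1CDS1. They met without overlapping, and diploid 5_10 held cells of both conditions, with a difference of -0.00732 (exact adjusted p = 0.107). Early-S cells of 1CDS2 lay between 25.6% and 40.3% of the order, against between 39.9% and 47.3% for 1CDS1. In late-S/G2 the cis means were 0.144 in both conditions, and no trans comparison had an adjusted p under 0.6.

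**Figure D3:**
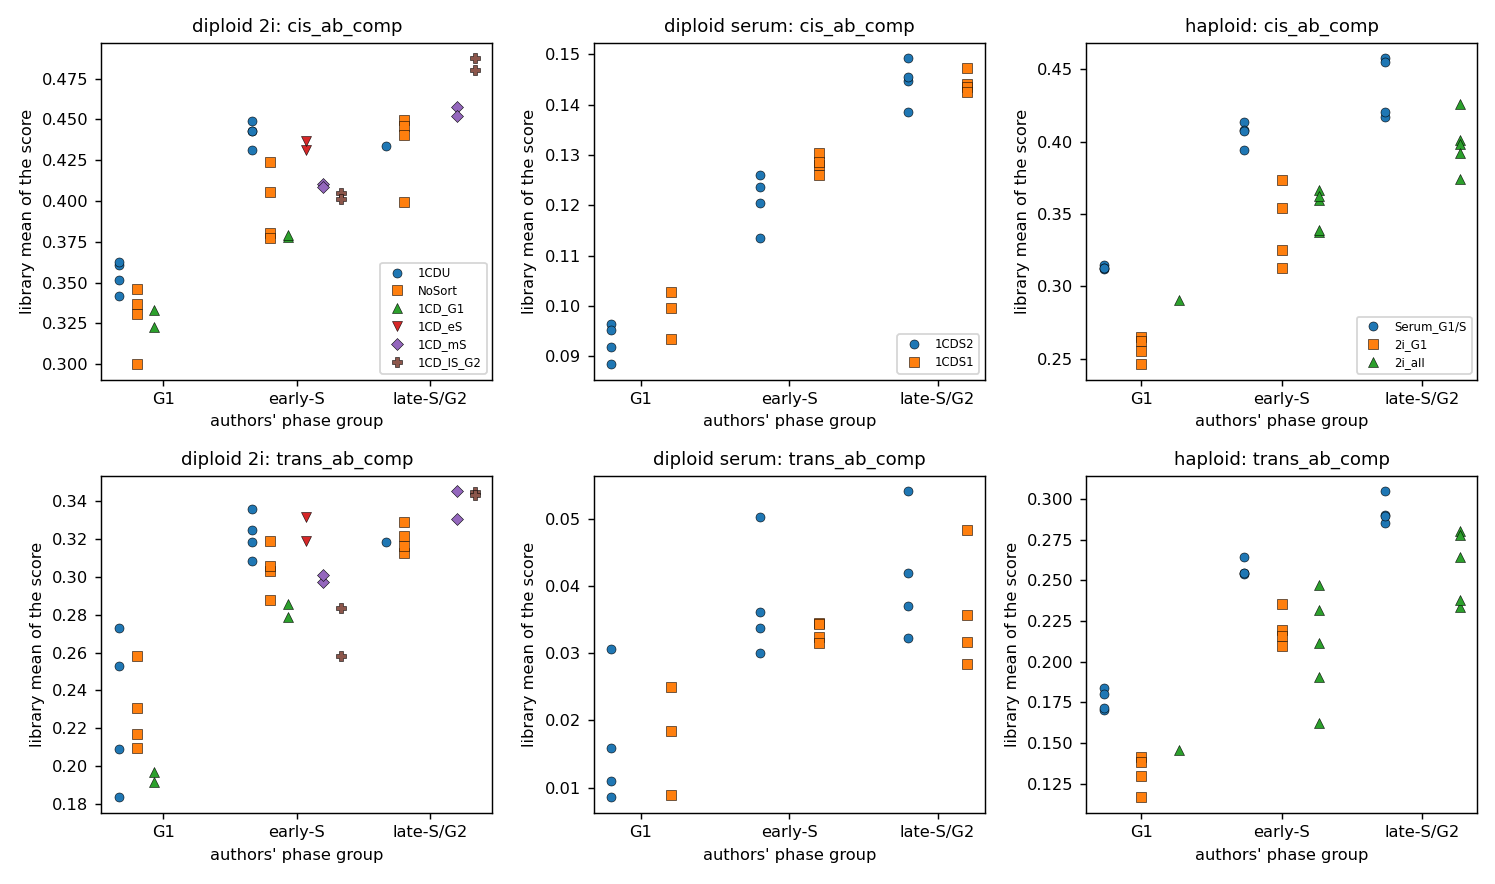
Library means of cis_ab_comp (top) and trans_ab_comp (bottom) by phase group and condition in the 3 tables, in units of the score, for libraries with at least 10 cells of the condition and phase. Each point is a library. Serum_G1/S lies above 2i_G1 in G1 and above 2i_G1 and 2i_all in early-S. The early-S cis points of 1CDU, between 0.431 and 0.449, lie above those of NoSort.

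Single cells of the same library and phase differed widely. In 2i the mean SD over cells of a library was 0.0711 for cis in G1, 0.0920 in early-S and 0.0976 in late-S/G2, and 0.0985, 0.0957 and 0.0998 for trans. The spread of cells was between 3.31 and 7.73 times the SD between library means in 2i phases, between 1.92 and 3.14 times in haploid phases and between 3.69 and 11.8 times in serum phases. Means over many cells vary less than single cells by sampling alone, so these ratios depend on the number of cells per library.

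The cis spread was higher in early-S than in G1 in most libraries, and no change of spread in either score passed. The mean ratio of the early-S SD to the G1 SD was 1.26 in 2i (higher in 7 of 10 libraries, permutation adjusted p = 0.0663), 1.34 in serum (7 of 7, exact adjusted p = 0.0507) and 1.23 in haploid cells (8 of 9, exact adjusted p = 0.0663). The trans ratio was 0.987, 0.904 and 0.970 (adjusted p between 0.258 and 0.907, permutation test). Into early-S, 13.3% of features changed spread in 2i, 20% in haploid and 0% in serum cells.

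Into late-S/G2 the cis ratio was 0.971 in 2i, 1.13 in haploid and 1.33 in serum cells. The trans ratio was 0.934 in 2i, 1.03 in haploid and 1.19 in serum cells. The trans ratio in serum was above 1 in 7 of 7 libraries (exact adjusted p = 0.0507). Here 26.7% of features changed spread in 2i, 13.3% in haploid and 0% in serum cells. Of the 12 tests of these scores none passed, while 11 of the 86 tests over all features did.

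The serum cis ratio into early-S passed with a minimum of 5 cells, at 0.517 on the log2 scale (exact adjusted p = 0.028). After a linear fit on log10 contacts both it, at 0.489, and the serum trans ratio into late-S/G2, at 0.246, passed (exact adjusted p = 0.0463 for each). The 2i cis ratio into early-S passed without diploid 20 (0.394 on the log2 scale, exact adjusted p = 0.0498). The haploid cis ratio into late-S/G2 passed without haploid 17 (0.249 on the log2 scale, exact adjusted p = 0.0489).

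**Figure D4:**
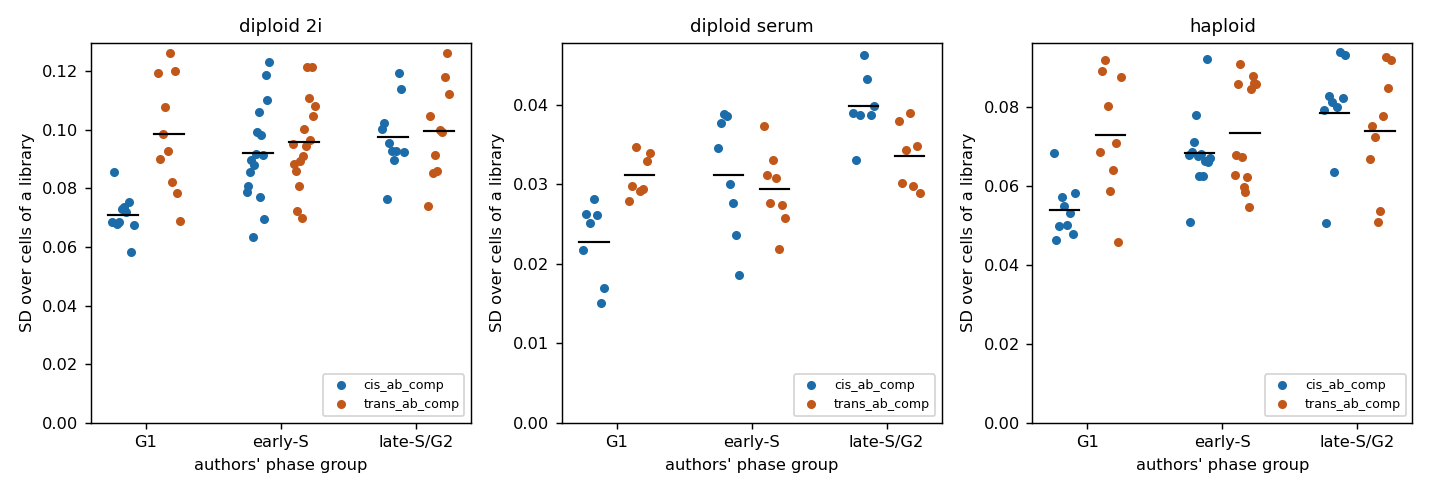
SD of cis_ab_comp (left points) and trans_ab_comp (right points) over the cells of a library, per phase group, in units of the score. Each point is a library with at least 10 cells of the phase, and black lines are means over libraries. The cis lines climb after G1, to 0.0920 in early-S in 2i, while the trans lines of 2i cells stay between 0.0957 and 0.0998.

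Depth per cell moved with the spread. After each batch and phase's own mean was taken off, the trans SD in 2i was 0.115 in the cells below the 25th percentile of contacts (median 64250) and 0.0860 in those above the 75th (median 361582). In haploid cells it was 0.0872 and 0.0561, and in serum 0.0404 and 0.0239. The cis SD was 0.100 and 0.0834 in 2i, 0.0772 and 0.0622 in haploid and 0.0462 and 0.0308 in serum cells, in the same classes. Haploid depth went with condition, as given above, and the part of each in the spread was not tested. The mean of either score in any class of depth differed from the set means by at most 0.00715. Any difference in level between shallow and deep batches was taken off with the set means, so this value cannot show it.

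Most of the spread lay between cells. Phase groups held 27.2% of the sum of squares of cis_ab_comp in 2i, 32.4% in haploid and 19.1% in serum cells. For trans_ab_comp they held 27.6% in 2i, 29.4% in haploid and 7.75% in serum cells. Libraries within phases held 4.75% of cis in 2i, 11.4% in haploid and 2.78% in serum cells, where the number of sets and the spread of cells alone would give 2.19%, 2.81% and 2.55%. For trans they held 3.48%, 7.29% and 3.72%, where 2.22%, 3.16% and 2.89% would come from the spread of cells alone. The haploid cis share stood farthest above that level among these 6.

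A trans score below 0 marks a cell with no net A-A and B-B preference between chromosomes only if 0 is the neutral point of the scale, which the sources used here do not state. Such cells made up 31% of post-M, 1.98% of G1, 0.113% of early-S, 0% of late-S/G2 and 21.4% of pre-M cells in 2i. In serum they made up 33.3%, 29.5%, 10.6%, 10.2% and 29.4% in the same order of phases. Only 1 passing cell, a serum early-S cell, had a cis score below 0. The deposited cis value exceeded the trans value in 85.2% of 2i, 98.0% of serum and 94.5% of haploid cells. Since neither scale is defined, these shares do not rank compartment contrast in cis against trans or between tables.

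The cells at both ends of the 2i range were shallow, with at most 2.36% of 2i cells below them in contacts. The highest cis score in 2i was 0.882, in an early-S cell of diploid 30_31 with 23731 contacts whose trans score was 0.260. The highest trans score there was also 0.882, in another cell of that library, in late-S/G2, with 26696 contacts and a cis score of 0.590. In haploid cells the highest cis score, 0.682, came from a cell of haploid 19 with 381262 contacts, and the highest trans score, 0.567, from one of haploid 8 with 44531.

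How far the scores go together was read as Spearman's rho over the cells of 1 batch and phase, with at least 20 cells. All cells of a set share a library and a phase, so levels between phases and libraries do not enter. In haploid cells rho had a median of 0.408 over 28 sets with 1096 cells, ran between 0.121 and 0.622, and was positive in 28 of 28. In 2i cells the median was 0.195 over 29 sets with 1648 cells, ran between -0.209 and 0.707, and was positive in 23. In serum cells it was 0.101 over 16 sets with 715 cells, ran between -0.279 and 0.273, and was positive in 10.

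By phase, the median rho was 0.426 in G1, 0.431 in early-S and 0.343 in late-S/G2 for haploid sets. It was 0.222, 0.225 and 0.132 for 2i sets and -0.0226, 0.125 and 0.101 for serum sets, of which 3 were in G1. By condition, haploid sets had medians of 0.448 in Serum_G1/S, 0.437 in 2i_G1 and 0.232 in 2i_all, where the sets of 2i_all were the shallowest, at a median of 54251 contacts per cell. Among 2i conditions the 4 sets of the 1CD_G1 gate had the highest median, 0.306, and the 9 NoSort sets the lowest, 0.0935. With the phases of a batch pooled, the median rho was 0.535 over 13 haploid batches, 0.274 over 20 2i batches and 0.136 over 8 serum batches, and was positive in each batch.

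Taking contacts per cell into account left the median rho at 0.408 in haploid, 0.193 in 2i and 0.0835 in serum sets. With contacts and the near-band share, the fraction of contacts at short distances, it was 0.325, 0.0982 and 0.0819. With contacts and the place in the order it was 0.328, 0.124 and 0.0857. Over cells of like depth, with set means taken off, rho was 0.5265 in haploid cells above the 75th percentile of contacts and 0.205 in those below the 25th. It was 0.282 and 0.0264 in 2i, and 0.103 and -0.0411 in serum cells, in the same classes. The deepest haploid class had a median of 203692 contacts, between the middle classes of 2i (154126 and 259256), where rho was 0.247 and 0.209. Haploid depth went with condition. Library medians of early-S cells lay between 153154 and 215178 contacts in Serum_G1/S, against between 25556 and 69137 in 2i_all. Depth and condition therefore cannot be told apart in these haploid classes or in their comparison with 2i.

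**Figure D5:**
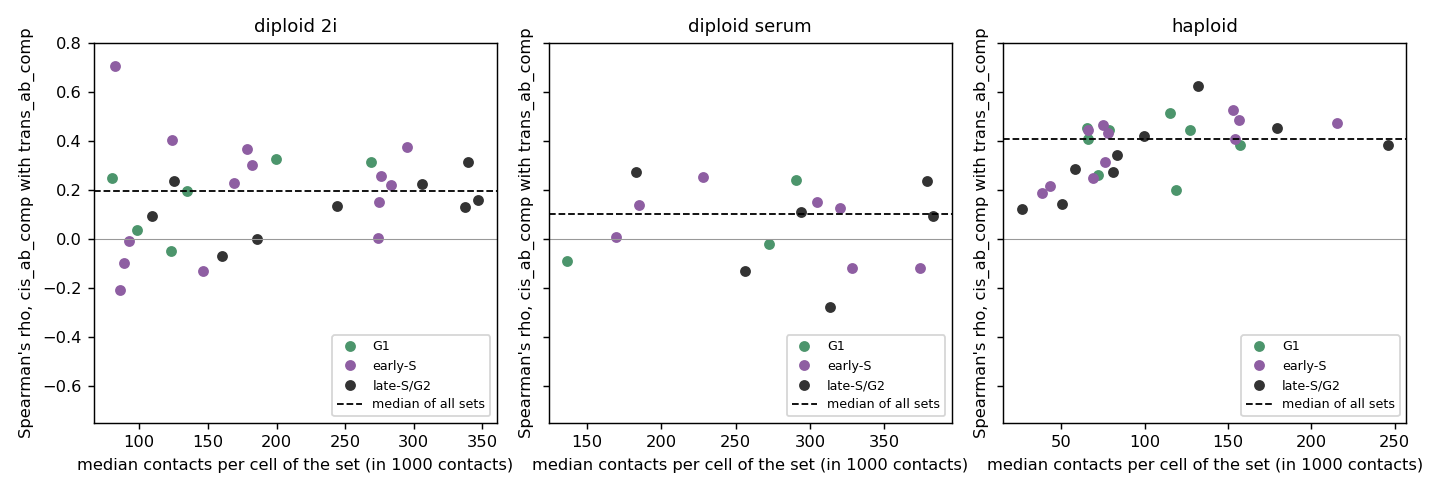
Spearman's rho of cis_ab_comp with trans_ab_comp over the cells of 1 batch and phase, against the median contacts per cell of that set, coloured by phase group. Each point is a set of at least 20 cells, and the dashed line is the median of all sets of a table, 0.195 in 2i, 0.408 in haploid and 0.101 in serum cells. All haploid points lie above 0.

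Other per-cell features were ranked by their median rho with each score within the same sets. In 2i cells cis_ab_comp went most closely with the near-band share (0.204, positive in 28 of 29 sets), with mean insulation, a value for domain borders (0.196, in 26), and with trans_ab_comp (0.195). The trans score went with the near-band share (0.201, in 26 of 29), with cis_ab_comp, and with the mitotic-band share, the fraction of contacts at the distances typical of condensed chromosomes (-0.177, positive in 5).

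In haploid cells the closest feature to each score was the other one. The near-band share followed at 0.333 for cis and 0.290 for trans, and the mitotic-band share at -0.288 and -0.197, positive in 1 of 28 sets for each. In serum cells cis_ab_comp went with the near-band share (0.184, positive in 15 of 16), the mitotic-band share (-0.133) and trans_ab_comp. The serum trans score had no feature above 0.101 in absolute median rho, with the replication score at 0.0923 and the mitotic-band share at -0.0921. These correlations are over cells that share a library, are given as a description, and the serum values are weak.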

How the data were processed

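Single-cell Hi-C of 2 mouse ES lines was analysed from 3 tables of cells by features deposited by the authors. Reads were aligned with Bowtie2 to mm9, per the submitters' processing notes. Each compartment score, like the insulation, replication and alignment score, is a deposited value whose scale is not defined. Contacts per cell are a count made by the authors, per the file headers. Band shares are deposited as a fraction of a cell's contacts, with band limits not given in the sources used here. The other deposited columns are the authors' order, phase group, condition, quality flag and batch number. Samples of nuclear RNA were not used.

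The scores and features were chosen with earlier results of these data known. Batches were joined to samples through the authors' numbering, and diploid 27 by its title. Library means over at least 10 cells of a phase were compared within libraries by flipping signs, two-sided (exact under 10 libraries, otherwise 100000 resamples) and between conditions by exact permutation of library labels, with at least 3 libraries a side, and with Benjamini-Hochberg adjustment at 0.05 over all features. Spread used log2 ratios of the SD. Correlations needed 20 cells. The tables have no values per gene, so no gene was named and no cell type markers applied. The features named beside the scores were the 3 with the largest absolute median rho in each table.

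Alternatives were minimums of 1, 5, 20 and 40 cells, medians, interquartile ranges, middle depths, fits on log10 contacts, single conditions, left-out libraries, Pearson and partial correlation, and 10 and 40 bins. Library effects fitted beside phases, and gates without cells flanking mitosis, were added after the data were seen. Contacts limit precision per cell, and the number of libraries limits it per group. The tools were numpy 2.4.6, scipy 1.17.1, pandas 2.3.3 and, for plots, matplotlib 3.10.9 under Python 3.11.15. On simulated data with 8 libraries of 40 cells per phase, more cells than many libraries have, the phase test called 99.2% of 240 changed and 2.5% of 280 unchanged features, and the spread test 100.0% and 2.5%. The simulated phase steps were larger, in cell SDs, than several measured here, such as 0.149 for serum trans into late-S/G2. The simulated ratio of SDs was larger than every mean ratio found for these scores. For changes smaller than those simulated, the power of both tests is not known. The condition test was tested on simulated data with more libraries than most comparisons have, and its power here is not known.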

Additional observations from a re-analysis of the deposited data

Results flagged for a closer look

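Among 58 groups of 4 to 10 libraries, 3 held a value far from the others, about as many as chance gives at 1 in 20. The early-S trans mean of haploid 19 was 0.265, above the other 3 Serum_G1/S libraries, which lay between 0.254 and 0.255. The log2 ratio of the early-S to the G1 cis SD was -0.423 in haploid 11, against between 0.182 and 0.567 in the other 8 libraries. The log2 ratio of the late-S/G2 to the early-S cis SD was -0.416 in haploid 17, against between 0.0231 and 0.472 in the other 8.

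The cis change into late-S/G2 was -0.0150 in the only 1CDU library with enough cells, opposite in sign to NoSort (0.0371 over 4 libraries), 1CD_mS (0.0452 over 2) and 1CD_lS_G2 (0.0809 over 2). That difference was not tested. Of the 10 differences in phase change between conditions that could be tested by permutation, none passed, with a smallest adjusted p of 0.154. Over all 71 tests of features none passed either, with a smallest permutation adjusted p of 0.135. The serum cis change into late-S/G2 was 0.0235 in 1CDS2 and 0.0160 in 1CDS1. Its unadjusted exact permutation p was 0.05, the smallest that this comparison can give.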

How the results depend on the processing

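No paired analysis was possible because the replicate numbers shared by diploid and haploid libraries join no groups compared here. That concerns pairing by number only: phases were paired within libraries, and diploid 5_10, with cells of 1CDS2 and 1CDS1, had its own values exchanged in the permutations. Under alternatives other than left-out libraries, 277 values kept their direction and side of the threshold or moved by less than their spread, while 39 moved by more, 22 lost a call, 10 gained one and 7 changed sign. The 277 include all 21 for the correlation of the scores and all 18 for that of other features with them. Where an alternative lost a call below, fewer libraries entered unless stated, and otherwise the cause was not tested.

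With at least 20 cells, the rises into early-S were 0.0751 (cis) and 0.0906 (trans) in 2i, 0.0886 and 0.0845 in haploid and 0.0287 (cis) in serum libraries, and those into late-S/G2 were 0.0398 and 0.0236, 0.0402 and 0.0391, and 0.0195, none past the threshold. At middle depths they were 0.0823 and 0.0956, 0.0897 and 0.0834, and 0.0365 into early-S, and 0.0364 and 0.00851, 0.0502 and 0.0390, and 0.0251 into late-S/G2, none past the threshold. In both settings, tests over 5 libraries or fewer could not pass. The serum cis rise into late-S/G2 did not pass on medians (0.0151), nor the 2i one after the fit on contacts (0.0443), both over the same libraries. The serum trans rise into early-S passed at a minimum of 5 or 1 cells (0.0182 each). In single conditions, without a test, the cis change into late-S/G2 was -0.0150 in 1CDU, 0.0809 in 1CD_lS_G2 (trans 0.0730) and 0.0160 in 1CDS1, and the change into early-S was 0.0507 for cis in 1CD_G1, and 0.0484 for cis and 0.101 for trans in 2i_all (1 library).

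Log2 SD ratios of trans changed sign with at least 5 cells in 2i (0.0872) and haploid (-0.0192) into late-S/G2 and in haploid into early-S (0.00999), and at middle depths in 2i (0.0327) and serum (-0.00304) into late-S/G2 and in serum into early-S (0.196). The serum cis ratio into early-S passed with 5 cells (0.517) and after the fit on contacts (0.489), as did the trans ratio into late-S/G2 after the fit (0.246). With at least 5 cells, Serum_G1/S minus 2i_G1 passed at 0.0521 (cis, G1), 0.0435 (trans, G1) and 0.0623 (cis, early-S), and minus 2i_all at 0.0511 (cis, early-S) and 0.0404 (cis, late-S/G2).

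The 1CD_eS minus 1CD_G1 difference was 0.0991 in trans on medians, 0.0779 in cis and 0.101 in trans with at least 5 cells, and 0.0877 in cis at middle depths. For 1CD_mS minus 1CD_eS trans was 0.00923 on medians and 0.00686 with 5 cells, and cis -0.0153 with 5 cells. For 1CD_lS_G2 minus 1CD_mS cis was 0.0206 on medians, 0.0482 with 5 cells, 0.0221 at middle depths and 0.0365 without cells flanking mitosis, and trans -0.00352, 0.00540 and 0.0137 under the last 3. The minimum of 5 cells adds 1 library to each gate.

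Along the order, 2i trans first reached 90% of its rise at 85% of the order with library means taken off or 40 bins, and at 80% with fitted library effects. Haploid trans did so at 70% with 10 bins, 50% on medians and 75% with fitted library effects, and haploid cis at 70%, 65% with 40 bins and 65% on medians. The highest cis bin lay at 90% in serum and 70% in haploid cells with 10 bins, and at 80% and 65% on medians. Library shares were 8.48% for 2i trans in G1 alone and 2.63% in late-S/G2, 1.29% for serum cis and 0.858% for serum trans in early-S, 1.51% for serum cis in late-S/G2, and 10.1% for haploid cis in late-S/G2.

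Leaving out 1 library at a time gave serum cis rises between 0.0268 and 0.0297 into early-S and between 0.0190 and 0.0205 into late-S/G2, none past the threshold. Log2 SD ratios ran between -0.0935 and 0.0426 (2i trans, early-S), 0.268 and 0.394 (2i cis, early-S), -0.0910 and 0.00400 (2i cis, late-S/G2), and 0.138 and 0.249 (haploid cis, late-S/G2). The serum trans rise into late-S/G2 ran between 0.00264 and 0.00577. Differences ran between -0.0136 and 0.0160 for 1CDU minus NoSort (trans, G1), and between -0.000230 and 0.0210 for 2i_G1 minus 2i_all (trans, early-S). For 1CDS2 minus 1CDS1 they ran between -0.00563 and 0.00286 (trans, G1), -0.000420 and 0.00686 (trans, early-S), -0.00150 and 0.00944 (trans, late-S/G2) and -0.00141 and 0.00218 (cis, late-S/G2). The SD of both scores was larger in shallow than in deep cells in each table, and few libraries limit the tests.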
